A study of Homo sapiens with 4 samples.

Results

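Cytosolic ribosomal protein genes were the members described here: every row of the deposited table whose symbol is RPL or RPS with a number (and, for some, A or X), RPSA, RPLP0, RPLP1 or RPLP2. The pattern took 77 of 51136 rows, 46 for large-subunit and 31 for small-subunit proteins, and left out pseudogenes, the RPS6K kinases and paralogs such as RPL3L. The data are RNA-seq of cells labelled A549, an established human lung adenocarcinoma line. The cells were transfected with control small interfering RNA (si-control, 2 libraries) or with small interfering RNA against DLX6 (si-DLX6, 2 libraries). DLX6 is a distal-less homeobox transcription factor gene. Whether the 2 si-DLX6 libraries received the same small interfering RNA is not given by the titles, and their column names hold SEQ1 and SEQ2. All 4 samples carried a wild-type genotype label, were grown in serum-containing medium, and were also labelled with an adipogenic treatment that neither the titles nor the transfection protocol mentions. The comparison addresses how transcript levels respond to knockdown of DLX6. Whether the 2 libraries of 1 group stem from separate cultures is not stated, and a p-value here reflects the spread among 4 libraries alone, part or all of which may be technical.

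Ribosomal proteins build the large and small subunits of the cytosolic ribosome around the ribosomal RNAs and are needed in matched numbers. Their mRNAs are among the most abundant of a growing cell. Most carry a 5′ terminal oligopyrimidine (TOP) tract, a run of C and T that begins at the first transcribed base, through which mTOR and LARP1 set how strongly they are translated and how stable they are. Loss of 1 copy of several of these genes causes Diamond-Blackfan anaemia, and loss of RPS14 contributes to the anaemia of the 5q- syndrome.

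The sequences around the annotated start are shown for the 5 members that passed the test below and for RPS6 and RPL28, which did not pass, because the TOP tract is the feature that defines how this family is controlled. Each window runs from 10 bases before to 20 bases from the annotated start (RefSeq, GRCh38.p14), 5′ to 3′ on the gene's own strand. Capitals mark a pyrimidine run that begins with C at the annotated first base and is at least 5 bases long.
RPL13A, chr19:49487598-49487627, plus strand: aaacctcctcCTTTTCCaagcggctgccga
RPS14, chr5:150449720-150449749, minus strand: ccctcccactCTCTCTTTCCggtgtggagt
RPS23, chr5:82278335-82278364, minus strand: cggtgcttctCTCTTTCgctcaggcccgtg
RPL6, chr12:112411423-112411452, minus strand: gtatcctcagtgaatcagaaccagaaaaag
RPS29, chr14:49598691-49598720, minus strand: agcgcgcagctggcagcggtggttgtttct
RPS6, chr9:19380217-19380246, minus strand: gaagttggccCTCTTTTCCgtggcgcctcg
RPL28, chr19:55385922-55385951, plus strand: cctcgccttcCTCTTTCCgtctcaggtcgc
Such a run was found at the annotated start of 42 of the 62 members matched to a promoter (67.7%), against 4.07% of all 35116 promoters searched the same way. Allowing the run to begin within 5 bases of the annotated start gave 50 members (80.6%) against 21.1% of all promoters. RPL6 and RPS29 have no run at this annotated base, which says only that the letters are not there in this annotation.

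The libraries held 9678221 to 12075285 reads, and the reads recovered for genes came to 98.0% to 98.1% of them. This share is a lower bound, because a factor shared by a gene's reads and length can be lost in the recovery. DLX6 itself was at 3.27 and 3.47 FPKM (reads scaled by gene length and library total) with si-control and at 0.916 and 0.450 FPKM with si-DLX6, which is the direction the labels give. The label A549 was checked against 8 marker genes: KRT8 (100 to 138 FPKM), KRT18 (422 to 475 FPKM), NQO1 (100 to 207 FPKM) and TXNRD1 were present, whereas AKR1B10 (0 to 0.377 FPKM), ALDH1A1 (0 to 0.0805 FPKM) and AKR1C1 (at most 1.5 FPKM) were at or near 0. CDKN2A, a gene known to be deleted in A549, was at 19.4 to 23.0 FPKM in every library. These values go against the label, and the cells are called "labelled A549" for that reason. No leukocyte, endothelial, fibroblast or adipocyte marker reached 1 FPKM in any library (0 of 4, 0 of 3, 0 of 3 and 0 of 5), and PTPRC, CD3E, CDH5, LUM, ADIPOQ and LEP were at 0 throughout. The summed level of a marker list was at most 0.505, 0.138, 0.585 and 0.242 FPKM in any library, in that order. In bulk RNA, fewer cells of a type and less RNA per cell cannot be told apart, and FPKM values are shares of a library, not amounts per cell.

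With si-DLX6, 5 ribosomal protein mRNAs fell and none rose, while the remaining 72 did not pass the test. RPL6 and RPL13A of the large subunit fell to less than the level of any si-control library by a wide margin, followed by RPS14, RPS29 and RPS23 of the small subunit. All 77 members were high enough to be tested, by limma on log2(FPKM + 1) over 15504 genes, with a call at an adjusted p under 0.05 (Benjamini-Hochberg over all genes tested). Differences below are on that log2 scale and given as si-DLX6 minus si-control. Of all genes tested 19.6% were called, 9.49% lower and 10.2% higher, against 6.49% lower and none higher among the ribosomal protein genes. Where mean FPKM was 100 or more, as in 71 of the 77 members and 821 genes in all, 25.3% were called and 15.6% were called lower. The number of falling members is thus no larger than the share of falling genes would give. With median-of-ratios scaling the split over all genes was 1816 lower and 1088 higher, in place of 1471 and 1575, and the same 5 members fell. Members called lower numbered 2 without the first si-control library (RPL6 and RPL13A), 3 without the second (these and RPS29), 4 without the first si-DLX6 library (these 2, RPS14 and RPL9) and 3 without the second (these 2 and RPS14). By limma-voom on the recovered reads 12 members were called lower and RPL28 higher, and 16 members had an unadjusted limma p under 0.05 (20.8%, against 36.1% of all genes).

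RPL6, a large-subunit protein on the solvent side of the ribosome, was at 444 and 450 FPKM with si-control and at 205 and 200 FPKM with si-DLX6. Both si-DLX6 libraries lay below both si-control libraries, and the replicates of a group nearly coincided. The mean went from 447 ± 3.96 to 203 ± 3.69 FPKM (SD, n = 2 each), 45.4% of si-control. The log2 difference was −1.14 (SE 0.10, 95% interval −1.37 to −0.91, adjusted p = 0.003, limma). It rested on 6651 and 5398 reads against 2670 and 2647 reads. RPL6 (ENSG00000089009.15) spans bases 112405190 to 112418838 of chromosome 12, minus strand (GENCODE release 29, GRCh38).

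RPL13A, a large-subunit protein also known in human monocytes as part of a complex that represses translation of inflammatory mRNAs, was at 741 and 700 FPKM with si-control and at 377 and 310 FPKM with si-DLX6. The groups did not overlap, and the 2 si-DLX6 libraries differed from each other more than those of RPL6 did. The mean went from 721 ± 29.4 to 343 ± 47.5 FPKM (SD, n = 2 each), 47.6% of si-control, with a log2 difference of −1.07 (SE 0.13, 95% interval −1.39 to −0.76, adjusted p = 0.00582, limma). The gene (ENSG00000142541.16) spans bases 49487554 to 49492308 of chromosome 19, plus strand, and hosts SNORD32A, SNORD33, SNORD34 and SNORD35A, small nucleolar RNAs that guide methylation of ribosomal RNA. None of these 4 passed the test, each on 12 reads or fewer per library. SNORD32A was at 12.1 and 10.1 FPKM with si-control and 3.49 and 8 FPKM with si-DLX6 (log2 difference −0.92, adjusted p = 0.085, limma), which is lower in both libraries, whereas SNORD35A had a log2 difference of 0.71 (adjusted p = 0.258, limma). Of the 28 members that host a small nucleolar RNA RPL13A alone was called, as were 4 of the 49 that host none. Over all genes tested 19.6% were called, and the difference between hosts and other members was not tested.

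RPS14, a small-subunit protein beside the channel through which mRNA leaves, was at 2267 and 2136 FPKM with si-control and at 1269 and 1257 FPKM with si-DLX6. Its own row was the highest of the members that fell, with 10460 to 21519 reads per library. The mean went from 2202 ± 92.5 to 1263 ± 8.43 FPKM (SD, n = 2 each), 57.4% of si-control, and the log2 difference −0.80 (SE 0.13, 95% interval −1.11 to −0.50, adjusted p = 0.0111, limma). The call was lost when either si-control library was left out (adjusted p = 0.0771 without the first and 0.0659 without the second, limma), with log2 differences of −0.76 and −0.84. The gene (ENSG00000164587.12) spans bases 150442635 to 150449756 of chromosome 5, minus strand.

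RPS29, a zinc-binding protein of the small-subunit head and a Diamond-Blackfan anaemia gene, was at 234 and 184 FPKM with si-control and at 143 and 140 FPKM with si-DLX6. The spread between the si-control libraries was large beside the difference. The mean went from 209 ± 35.8 to 142 ± 2.37 FPKM (SD, n = 2 each), 67.8% of si-control, and the log2 difference −0.55 (SE 0.13, 95% interval −0.87 to −0.23, adjusted p = 0.0351, limma). Without the first si-control library the log2 difference was −0.37 (adjusted p = 0.135, limma), and the call was also lost without the first (0.0753) or the second (0.0913) si-DLX6 library. RPS29 (ENSG00000213741.10) spans bases 49570984 to 49599164 of chromosome 14, minus strand.

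RPS23, a small-subunit protein of the decoding centre, was at 168 and 173 FPKM with si-control and at 130 FPKM in both si-DLX6 libraries. Its groups were tight and did not overlap. The mean went from 170 ± 3.43 to 130 ± 0.41 FPKM (SD, n = 2 each), 76.4% of si-control, and the log2 difference −0.39 (SE 0.09, 95% interval −0.61 to −0.17, adjusted p = 0.0325, limma). The call was lost when any 1 of the 4 libraries was left out, with adjusted p of 0.104 to 0.142 (limma) and log2 differences of −0.41 to −0.37. RPS23 (ENSG00000186468.12) spans bases 82273358 to 82278577 of chromosome 5, minus strand.

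**Figure D1:**
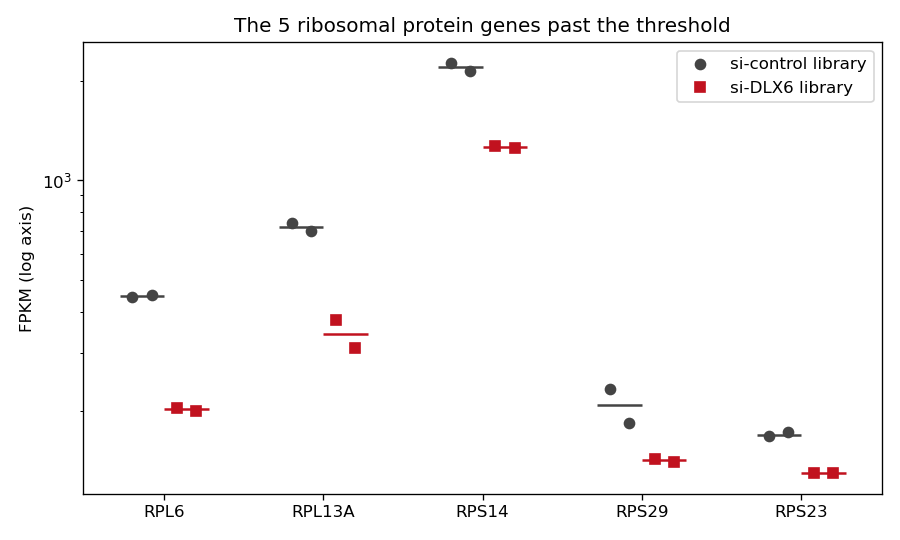
Level of the 5 ribosomal protein genes that passed the test, in FPKM on a log axis. Circles are si-control libraries, squares si-DLX6 libraries and bars the means of 2, and for each gene both squares lie below both circles.

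The other 72 members spanned a log2 difference of −0.47 to 0.33. Over all 77 the median was −0.03, beside 0.05 over all genes tested, with −0.02 for the large and −0.06 for the small subunit. The difference was below 0 for 50 members and above 0 for 27, and 58 members were within 0.25 of 0. The SE of a member ran from 0.09 to 0.26 with a median of 0.15. The 95% interval of 40 members lay within 0.5 of 0 and that of 74 within 1, so at this depth and replication a change of 2-fold is outside the interval of nearly all members, and a smaller change is often not. The groups did not overlap, with si-DLX6 lower, in 19 members (24.7%, against 27.9% of all genes tested), and with si-DLX6 higher in 3 members (3.9%, against 35.1%).

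**Figure D2:**
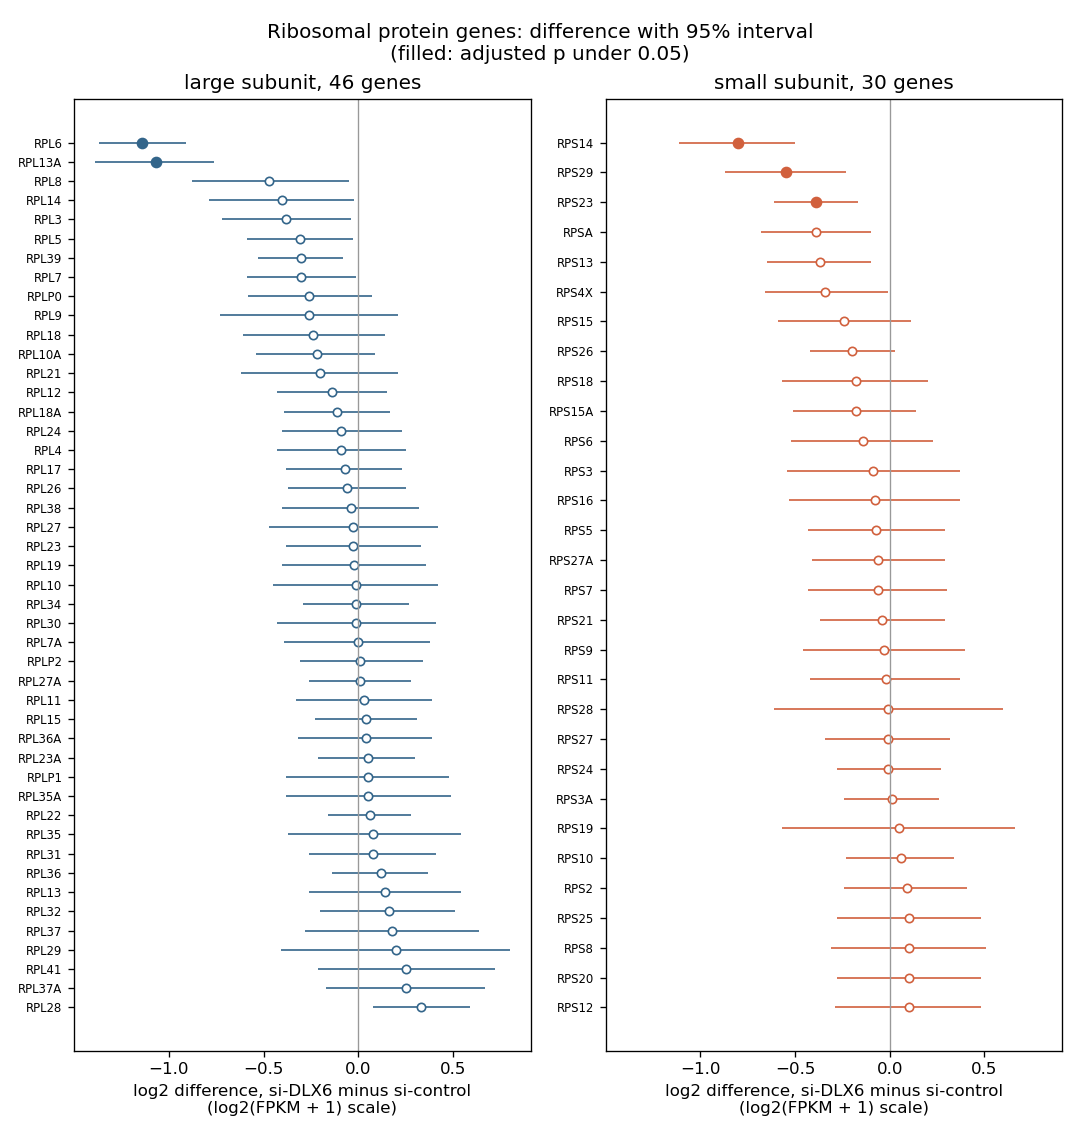
Log2 difference of each ribosomal protein gene with its 95% interval (si-DLX6 minus si-control, log2(FPKM + 1) scale), large subunit on the left and 30 of the 31 genes of the small subunit on the right. Filled points passed the test, and RPL6, RPL13A and RPS14 stand at −1.14, −1.07 and −0.80 while the uncalled genes lie between −0.47 and 0.33.

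Just short of the threshold on the lower side was RPSA, a small-subunit protein also described as a laminin receptor precursor, at 717 and 697 FPKM with si-control and 578 and 503 FPKM with si-DLX6 (log2 difference −0.39, adjusted p = 0.065, limma). RPS13 was at 786 and 765 against 629 and 570 FPKM (−0.37, adjusted p = 0.0656, limma), and RPL39, which lines the exit tunnel for the nascent chain, at 84.8 and 89.5 against 72.2 and 68.7 FPKM (−0.30, adjusted p = 0.0692, limma). In each of these 3 genes both si-DLX6 libraries lay below both si-control libraries, and the test was not passed. The same held for RPL8 and RPL3, proteins near the peptidyl transferase centre. RPL8 was at 3457 and 2894 against 2518 and 2075 FPKM (−0.47, adjusted p = 0.106, limma) and RPL3 at 1561 and 1333 against 1175 and 1045 FPKM (−0.38, adjusted p = 0.107, limma).

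On the higher side, RPL28, a large-subunit protein, came closest to the threshold, at 183 and 163 FPKM with si-control and 225 and 210 FPKM with si-DLX6. Its groups did not overlap, and the log2 difference was 0.33 (SE 0.11, adjusted p = 0.0749, limma). The other 2 members with si-DLX6 above both si-control libraries were RPL36, at 452 and 421 against 487 and 460 FPKM (0.12), and RPL22, an RNA-binding large-subunit protein, at 114 and 113 against 121 and 115 FPKM (0.06). RPL37A (0.25), RPL41 (0.25), RPL29 (0.20), RPL37 (0.18), RPL32 (0.16) and RPL13 (0.14) had larger log2 differences than RPL22 and overlapping groups. The same holds for RPS20, RPS25 and RPS2, at 0.10, 0.10 and 0.09. RPL41, for example, was at 592 and 392 FPKM with si-DLX6, on both sides of its si-control values of 414 and 395 FPKM.

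By place in the ribosome, the proteins of the P stalk, which recruits translation factors, did not pass the test. RPLP0 was at 2172 and 1979 against 1786 and 1686 FPKM (log2 difference −0.26, adjusted p = 0.222, limma), while RPLP1 (0.05) and RPLP2 (0.01) were closer to 0. RPL5 and RPL11, which bind 5S rRNA and, outside the ribosome, the ubiquitin ligase MDM2, differed in value but neither passed. RPL5 was at 1285 and 1315 against 1056 and 1045 FPKM (−0.31, adjusted p = 0.113, limma), and RPL11 at 1868 and 1818 against 2080 and 1703 FPKM (0.03). None of 8 exit-tunnel proteins was called (median −0.04), nor was RPS6, the S6 kinase substrate (−0.14), or RPS27A, made as a fusion with ubiquitin (−0.06). Of 4 proteins at the mRNA entry and decoding site RPS23 fell (median −0.16), and of 4 at the mRNA exit RPS14 fell (median −0.29). Of 19 Diamond-Blackfan anaemia genes RPS29 fell (median −0.01). Over all genes tested 9.49% were called lower, and differences between these lists were not tested. Ribosomal proteins that bear other symbols did not pass either: FAU had a log2 difference of −0.03 and the WD-repeat protein gene GNB2L1 (RACK1) of −0.06.

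The levels themselves covered a wide range. Over the 4 libraries the mean FPKM of a member ran from 5.36 for RPL21 to 4811 for RPS16, with a median of 645. After RPS16 came RPS6 (2837 FPKM) and RPL35 (2772 FPKM), which did not differ beyond the spread of their own libraries (2520 to 3166 and 2459 to 3264 FPKM). Of the 77 members, 28 had a mean of at least 1000 FPKM and 6 had a mean under 100 FPKM. The lowest were RPL21, RPL36A at 8.90 FPKM and RPS26 at 67.4 FPKM, and 70 members had at least 1000 reads in every library. FPKM divides by the gene length the authors used, which follows from the recovered reads, and where that length was long the level came out low. RPL28, for example, had 6935 to 10404 reads per library at an implied length of 4403 bases, while RPL13A had 3900 to 10572 reads at 1181 bases.

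Summed over the 77 genes, ribosomal protein FPKM was 82607 and 72666 under si-control, against 79088 and 66606 under si-DLX6, so the groups overlapped. That is 14.3% and 13% against 13.4% and 12% of all FPKM. In recovered reads it is at least 6.84% and 6.02% against 6.44% and 5.47% of the library totals, as lost shared factors make these counts too low. The ratio of the group means was 0.938, and leaving out 1 library at a time gave 0.858 to 1.02, on both sides of 1. The large-subunit sum was 1.174 and 1.154 times the small-subunit sum under si-control, against 1.223 and 1.187 times under si-DLX6. These ratios did not overlap, by a margin smaller than the difference between libraries of a group. With 2 libraries against 2 an exact permutation test cannot go below p = 0.333, so no test of these sums was made.

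Within each group the family differed between the libraries. Relative to each gene's si-control mean, the median member was at 0.09 and −0.09 on the log2 scale in si-control 1 and 2, and at 0.07 and −0.18 in si-DLX6 1 and 2. The first library of the si-control group was above the second in 63 of 77 members and the first si-DLX6 library above the second in 71 of 77. The median difference was 0.18 and 0.24, against −0.04 and −0.05 over all genes tested. The family thus differed by more between libraries of 1 group than its median differed between groups, and the cause was not tested. In the 2 si-DLX6 libraries RPL6 was at −1.12 and −1.16, RPL13A at −0.93 and −1.22 and RPS14 at −0.79 and −0.81 on this scale, outside that range in both. RPS29, at −0.53 and −0.56, and RPS23, at −0.39 and −0.38, lay nearer to the rest. In the second si-DLX6 library both lay among uncalled members, with RPL8 at −0.61 and RPL9 at −0.58. In the first, no uncalled member was as low as RPS29.

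**Figure D3:**
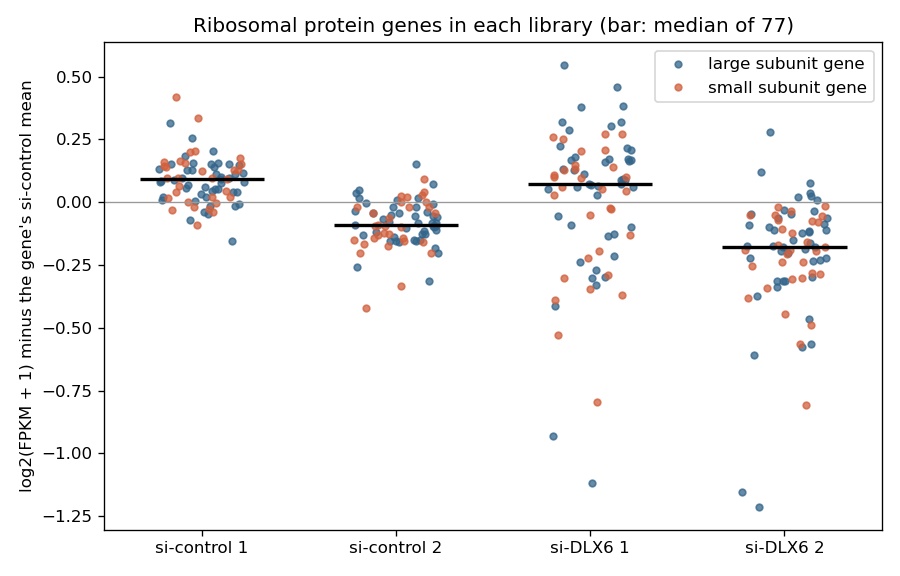
Each ribosomal protein gene in each library, as log2(FPKM + 1) minus the gene's mean in the 2 si-control libraries (log2 units), with a bar at the median of 77. The medians are 0.09, −0.09, 0.07 and −0.18 from left to right, so the libraries within a group stand apart, and 3 genes lie far below the rest in both si-DLX6 libraries.

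Ribosomal protein genes have many processed pseudogenes, copies of the mRNA inserted in the genome that are nearly identical to it, and reads can be divided between the gene and its copies by the aligner. The table held 1886 rows named as pseudogenes of the 77 members, 1500 of them above 0, and their FPKM summed to 48473 to 60093 per library. For 33 members the pseudogene rows together exceeded the gene's own row, by 117 times for RPL36A, 39.1 times for RPL21, 15.6 times for RPL27A and 14.4 times for RPS27. The low levels of RPL21 and RPL36A above are therefore uncertain, and the rows of a gene and its copies cannot be told apart as sources of reads. RPL6, RPL13A and RPS23 are among these 33, and RPS14 and RPS29 are not.

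The pseudogene rows of the falling members were also lower. RPL13AP5 was at 2608 and 2629 FPKM with si-control and at 1257 and 1165 FPKM with si-DLX6 (log2 difference −1.11, adjusted p = 0.00538, limma), more than the RPL13A row itself holds. RPL6P10 was at 501 and 484 against 246 and 221 FPKM (−1.08, adjusted p = 0.00404, limma) and RPL6P27 at 652 and 672 against 381 and 301 FPKM (−0.96, adjusted p = 0.00861, limma). Each stood at close to the log2 difference of its parent gene. RPS23P8 was at 1133 and 1350 against 946 and 918 FPKM (−0.41), and did not pass (adjusted p = 0.0803, limma). Of the tested pseudogene rows, 10 of 14 for RPL6, 11 of 12 for RPL13A, 5 of 6 for RPS14 and 5 of 7 for RPS29 fell, and none of 4 for RPS23. Together 31 of 43 rows of the 5 falling members fell and none rose, while of 859 rows of the other members 38 fell and 11 rose. Of all genes tested 9.49% fell and 10.2% rose. These rows can hold reads of their parent genes, which were picked because they fell, so the counts are no independent support.

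Added to the gene's own row, the copies changed little for RPL6 (log2 difference −1.05, adjusted p = 0.0062, limma), RPL13A (−1.09, 0.00684), RPS14 (−0.79, 0.0114) and RPS29 (−0.58, 0.0189). For RPS23 the sum gave −0.41 and was not called (adjusted p = 0.0762, limma). Across the 77 members, which are not independent replicates and share libraries and reads, the log2 difference of the own row and of the summed pseudogene rows had a Pearson correlation of 0.84, and of 0.64 over the 72 uncalled members.

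**Figure D4:**
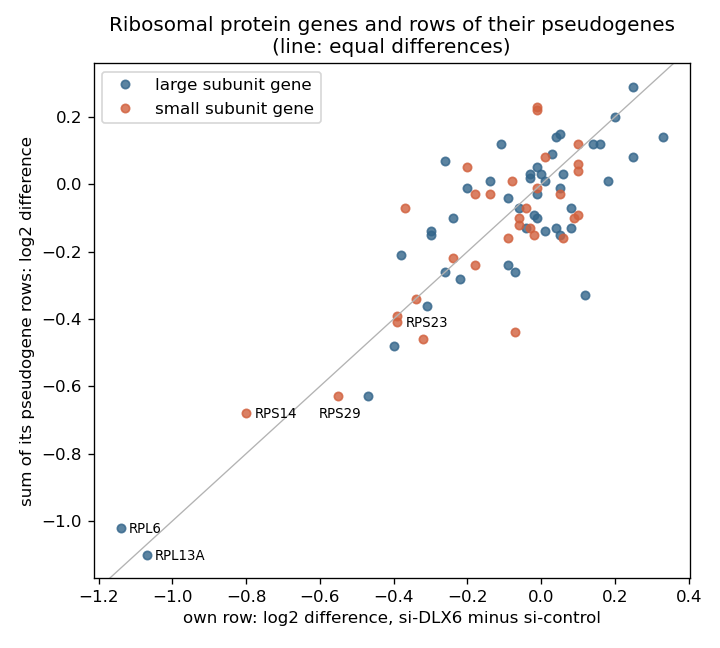
Log2 difference (si-DLX6 minus si-control) of each ribosomal protein gene's own row against that of the summed FPKM of its pseudogene rows, with a line where both are equal. RPL6 and RPL13A are lowest on both axes, at −1.14 and −1.02 and at −1.07 and −1.10.

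Falling members were found with and without an annotated TOP start. Of the 42 members with a pyrimidine run there RPL13A, RPS14 and RPS23 fell, with a median of −0.01 over the 42, and of the 20 without one RPL6 and RPS29 fell, with a median of −0.07. The difference between these sets was not tested, and 15 members had no matched promoter. Among 16 other TOP mRNAs, which encode translation factors and related proteins, 2 fell and none rose, with a median of 0.00, beside 9.49% lower and 10.2% higher and a median of 0.05 over all genes tested. HNRNPA1, an RNA-binding splicing factor, was at 134 and 148 FPKM with si-control and 57.3 and 59.4 FPKM with si-DLX6 (log2 difference −1.25, adjusted p = 0.00241, limma), a fall of the size of that of RPL6. NPM1, the nucleolar protein nucleophosmin, had a log2 difference of −0.47 (adjusted p = 0.0317, limma), a call lost when any 1 library was left out (adjusted p 0.0573 to 0.163, limma). The elongation factor genes EEF1A1 (−0.11) and EEF2 (−0.02) did not pass.

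Of 18 genes that regulate TOP mRNAs 4 fell and none rose, with a median of −0.10, beside the same 9.49% lower and 10.2% higher over all genes. RPS6KB2, an S6 kinase, had a log2 difference of −0.84 (adjusted p = 0.00758, limma). EIF4EBP1, an mTOR-regulated inhibitor of cap-dependent translation, was at −0.54 (adjusted p = 0.0318, limma). The EIF4EBP1 call was lost without the first si-control library (0.116) or the second si-DLX6 library (0.114). CNBP and SSB, RNA-binding proteins, were at −0.45 (adjusted p = 0.0225, limma) and −0.44 (adjusted p = 0.025, limma). Both calls were lost when any 1 library was left out, with adjusted p of 0.068 to 0.106 for CNBP and 0.0647 to 0.104 for SSB (limma). LARP1 (0.10) and MTOR (−0.18) did not pass. Of 9 dedicated chaperones of ribosomal proteins 2 fell and none rose, with a median of −0.28, against the 9.49% lower of all genes: GRWD1, the RPL3 chaperone, at −0.53 (adjusted p = 0.0278, limma), and PDCD2, the RPS2 chaperone, at −0.62 (adjusted p = 0.0139, limma). The GRWD1 call was lost when any 1 library was left out (adjusted p 0.0686 to 0.126, limma), and the PDCD2 call without the second si-control (0.0524) or the first si-DLX6 library (0.0527).

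Of the genes linked to the 5S ribonucleoprotein, RRS1 (log2 difference −0.56, adjusted p = 0.018, limma) and RPF2 (−0.45, adjusted p = 0.0357, limma), which bring RPL5 and RPL11 into the pre-ribosome, fell. The RPF2 call was lost when any 1 library was left out (adjusted p 0.0945 to 0.152, limma), and the RRS1 call without the first si-control (0.0684) or the first si-DLX6 library (0.0712). CDKN1A, a cell cycle inhibitor gene (0.05), and MDM2 (−0.34) did not pass.

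Of 8 paralogs outside the symbol pattern, RPL3L, the striated-muscle paralog of RPL3, was called higher, at 0.271 and 0.541 FPKM with si-control and 1.19 and 1.47 FPKM with si-DLX6 (log2 difference 0.73, adjusted p = 0.045, limma), on 5 to 24 reads per library. That call was lost when any 1 library was left out (adjusted p 0.0657 to 0.163, limma). RPL22L1 had a log2 difference of −0.65 and did not pass (adjusted p = 0.105, limma). The 77 mitochondrial ribosomal protein genes, whose ribosome translates the mitochondrial genome, had a median of −0.22, with 20 lower and 2 higher, beside 9.49% lower, 10.2% higher and a median of 0.05 over all genes tested. The difference between these families was not tested.

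The word TCCTCA, read on the transcript strand, was counted in 1 GENCODE release 29 transcript per member, because it was found in an earlier search of the 3′ UTRs of genes that fell in these same libraries. Its count in falling members is for that reason a description and no independent support, and no small interfering RNA sequence was used here. RPL6, the member with the largest fall, held 4 copies, all in the coding sequence, RPL13A held 3 and RPS14 held 2. The sites of these 3 genes and of RPL18, which holds 2 and was not called (log2 difference −0.24), are shown with the word in capitals and the position of its first base in the transcript.
RPL6 coding, base 510: ccattctgatcaTCCTCActggacgccaca
RPL6 coding, base 594: ctggacctctggTCCTCAatcgagttcctc
RPL6 coding, base 847: aatcaaagctatTCCTCAgctccagggcta
RPL6 coding, base 901: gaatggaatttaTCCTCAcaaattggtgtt
RPL13A coding, base 660: aatacacagaggTCCTCAagacccacggac
RPL13A 3′ UTR, base 709: aagactgttaatTCCTCAtgcgttgcctgc
RPL13A 3′ UTR, base 1136: catcgcccatgcTCCTCAcctgtattttgt
RPS14 coding, base 413: gaccgagatgaaTCCTCAccatatgctgct
RPS14 3′ UTR, base 672: tgtgaacaagatTCCTCAaaatattttctg
RPL18 coding, base 731: cccgcagccgcaTCCTCAgggcagggggca
RPL18 coding, base 752: cagggggcaagaTCCTCActttcgaccagc

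Of 7 members with 2 or more copies 3 fell (median log2 difference −0.24). Of 17 with 1 copy RPS23 fell (median −0.06), and of 53 with none RPS29 fell (median −0.02). Over all genes tested 9.49% were called lower. A relation to copy number was not tested, and these data cannot test it because the word came from genes that fell in them. The 4 members with 2 or more copies that were not called were RPL18, RPL27A (0.01), RPL37 (0.18) and RPL37A (0.25). The last 3 have annotated transcripts of 3647 to 7686 bases and copies in UTRs, where RPL13A and RPS14 also hold copies. For RPL37 and RPL37A the gene length implied by the values was 1570 and 420 bases, against transcripts of 7686 and 3647 bases. For RPL27A, which holds 3 copies and did not fall, the implied length was 4879 bases against a transcript of 4916 bases. An implied length can be too short where a factor shared with the reads was lost. Whether the copies of these 3 genes lie in the measured mRNA was not tested. Among transcripts of 500 to 1500 bases, 28.6% of 56 members held the word and 7.14% held it at least 2 times, against 32.2% and 7.73% of 1644 tested protein-coding genes. The family as a whole thus did not hold the word more often than other short transcripts. Copies in the pseudogene transcripts were not counted.

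**Figure D5:**
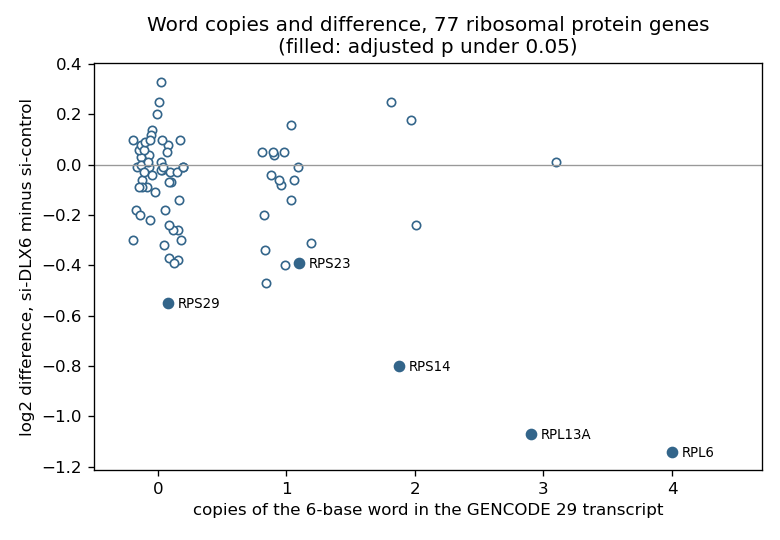
Number of copies of the 6-base word in 1 transcript per ribosomal protein gene (points spread sideways around each whole number) against the log2 difference, si-DLX6 minus si-control. RPS14, RPL13A and RPL6, with 2, 3 and 4 copies, are at −0.80, −1.07 and −1.14, while another gene with 3 copies is at 0.01.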

How the data were processed

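Per the labels' protocols, a SMARTER kit turned 1.3 µg of total RNA into each mRNA-Seq library. The authors deposited a table of 51136 rows and 4 value columns. Its header states no unit, and the deposited values were taken as FPKM because they are whole reads divided by a whole gene length and by the library total. Reads, lengths and totals were recovered on that basis, with whole reads within 0.0001 for 28628 of the 28637 rows above 0 (99.97%); a factor shared by a gene's reads and length can be lost. The totals came to 12075285 (si-control 1), 9678221 (si-control 2), 10485013 (si-DLX6 1) and 10665357 reads (si-DLX6 2). Replicates differed beyond counting error, with a chi-square over its degrees of freedom of 6.8 for si-control and 8.12 for si-DLX6, and so were taken as distinct libraries. The aligner, counter, strand setting and read length are not stated. GRCm38 and mm10, names of a mouse build, stand in the submitters' processing notes although the rows have human symbols, so no coordinates came from the table.

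Samples were grouped by title and columns matched by the names in the sample descriptions; no column was left unused. limma-trend (limma 3.58.1, R 4.3.3) was fitted on log2(FPKM + 1), a scale that understates changes of low genes, with a single group term, on 15504 genes that reached 1 FPKM in 2 or more libraries. p-values were adjusted by Benjamini-Hochberg over these genes and called under 0.05. Recovery and fit were tested on simulated data. Alternatives were other pseudocounts, scalings and filters, limma-voom on recovered reads, the replicate number as a block, pseudogene rows added to their parent, and leaving out each library. Scaling to the ribosomal protein median was added after seeing the data. Positions and transcripts came from GENCODE release 29 by symbol, and promoter starts from RefSeq, matched by symbol for 62 of 77 members. Pseudogene rows were found by symbol.

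The members and gene lists were chosen with earlier results of these data known. Genes named are the 12 members with the smallest p on each side, the 3 most and least abundant, the P stalk, 5S, RPS6 and fusion members, the paralogs, called genes of the 4 related lists and rows or genes tied to a named member (pseudogenes, small nucleolar RNAs, word holders); EEF1A1, EEF2, LARP1, MTOR, MDM2 and CDKN1A were named after their values were seen. A few genes that these rules and lists take are not reported here.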

Additional observations from a re-analysis of the deposited data

How the results depend on the processing

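RPL6 was called lower under all 15 alternatives (log2 difference −1.23 to −1.05, adjusted p 3.60e-05 to 0.0473), RPL13A under 14 (not without a filter on low values, adjusted p 0.056), RPS14 under 12, RPS29 under 10 and RPS23 under 7. The number of members called lower was 5 as reported, 3 with upper-quartile scaling, 9 with columns scaled to equal sums, 1 with no filter, 12 with limma-voom on recovered reads and 2 to 4 with 1 library left out. Without a si-DLX6 library, RPL9 was called lower (without the first) and RPL41 higher (without the second). Members called higher numbered 0 as reported, 1 with scaling to equal sums, with limma-voom (RPL28 in both) and with scaling to the ribosomal protein median (RPL37A), and 0 to 1 with 1 library left out. The median log2 difference of the 77 members was −0.18 to 0.07 with 1 library left out and −0.12 with median-of-ratios scaling, and that of the large subunit −0.17 to 0.09 with 1 library left out; its sign is not settled. The ratio of large- to small-subunit sums between groups was 1.04, and 1.01 with pseudogene rows added. The cause of these shifts was not tested.

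The labels give both groups replicate numbers 1 and 2, with no statement that a number marks a shared culture or day. With the replicate number as a block, 18 members were called lower and 2 higher (RPL28 and RPL37A), and 2370 lower and 2749 higher among all genes. Same-numbered libraries deviated together with a correlation of 0.20 over all genes and 0.31 over the members. From 2 pairs these values cannot show whether a number marks a shared culture or day. The main fit left the pairing out because the labels do not state it, and the count of called members depends on that choice.

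Over all genes 1575 were called higher and 1471 lower, but 1088 and 1816 with median-of-ratios scaling, 922 and 644 with the ribosomal protein median, 167 and 205 with no filter, and 682 to 852 and 683 to 915 with 1 library left out. Of the values of 57 named genes under the alternatives, 750 kept their status as called or not called, 72 lost a call and 31 gained one. No call reversed its direction. The 750 include uncalled values that changed sign, as 20 genes that were never called changed sign under some setting. With 2 libraries per group, differences under about 2-fold are often not resolved.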
